A study of Mus musculus with 9 samples.

Results

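The genes described here encode the intermediate filament proteins and lamins of muscle cells: Des, Vim, Nes, Synm and Sync in the cytoplasm, the cytolinker Plec, and Lmna, Lmnb1 and Lmnb2 in the nucleus. They were chosen by name, and all 9 were found by Ensembl identifier in the files of cultured cells, which list 46078 genes, and in those of gastrocnemius muscle, which list 38293. RNA sequencing counts were available for 9 mouse libraries of the C57BL/6 strain, with no transgene or mutation named. GAS is whole gastrocnemius muscle of adult females, not treated (3 libraries). MB are primary myoblasts, the muscle precursor cells, grown in medium with horse serum, fetal bovine serum and basic FGF on Matrigel and given PBS as vehicle (2 libraries). MT are myotubes obtained from MB by 3 days in differentiation medium with a low share of horse serum, also labelled as controls (2 libraries). The last group is MB given 10 mM sodium-L-lactate in PBS (2 libraries). The labels number the libraries as biological replicates but do not say whether the cultures came from separate animals or isolations, so that p-values measure the spread between these libraries.

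Intermediate filaments are ropes of coiled-coil proteins that give cells mechanical strength. Des and Vim belong to the same class and can form filaments on their own, Nes and Synm are long proteins that join filaments of Des or Vim, and Sync binds the muscle filaments and links them to the dystrophin complex. Desmin filaments tie the Z-discs of neighbouring myofibrils to each other, to the nucleus and to the membrane, whereas vimentin and nestin are known for precursor and regenerating muscle cells. Plec, a giant plakin, fastens intermediate filaments to other structures. The lamins form the meshwork under the inner nuclear membrane, the A-type from Lmna and the B-type from Lmnb1 and Lmnb2, and Lmnb1 is known to be higher in dividing than in non-dividing cells.

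Des and Vim belong to the same class of filament proteins. In MT, Vim was lower than in MB and Des was higher, though the difference of Des did not pass the test described below. For these 2 genes the 120 bases directly upstream of their RefSeq gene starts (build GRCm38.p6, the mm10 assembly) are shown. The Des stretch is chr1:75360172-75360291 and the Vim stretch chr2:13574191-13574310, both on the plus strand and written 5′ to 3′. Capitals mark the E-box CAGCTG, the GC box GGGCGG, the box TATAAA and the box CCAAT, each searched on both strands. The boxes do not overlap.
Des: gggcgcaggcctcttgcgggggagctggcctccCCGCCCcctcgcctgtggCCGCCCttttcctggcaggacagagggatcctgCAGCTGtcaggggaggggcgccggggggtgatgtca
Vim: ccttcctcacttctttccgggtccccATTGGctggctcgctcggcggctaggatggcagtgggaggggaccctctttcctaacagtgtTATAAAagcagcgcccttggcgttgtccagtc
CAGCTG, a sequence of the kind bound by MyoD and myogenin, starts 36 bases before the Des start and occurs in 16.3% of all 32851 RefSeq promoter windows, which run from 250 bases before to 50 bases after a gene start. GGGCGG, found in GC boxes, starts 87 and 69 bases before the Des start and is in 35.7% of the windows. The Vim stretch holds TATAAA 32 bases before the start, which 13.6% of windows hold, and CCAAT on the reverse strand 94 bases before it, which 37.4% hold. In the whole window, Vim has a further CCAAT 196 bases before the start and no CAGCTG or GGGCGG, and Des has no TATAAA or CCAAT.

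Windows were given for 7 of the 9 genes, and Plec and Lmnb1 have none. Besides Des, CAGCTG was found in the window of Sync, 26 bases after the start, and not in those of Nes, Synm, Lmna and Lmnb2. GGGCGG was found for Nes, Sync and one of 2 windows each of Lmna and Lmnb2, and CCAAT for Synm and the other window of Lmna. The CArG box (in 1.63% of windows) and the MEF2 site (in 3.19%), both known from muscle promoters, had no match in the windows of these genes. A match describes letters and not a bound site.

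Between 5198247 and 10839516 counts fell on genes in each cultured library and between 19307793 and 19941574 in each GAS library, so that 3 counts correspond to at most 0.577 CPM (counts scaled to the library total, and for the levels of genes also to its TMM factor), a limit for counting error only. MT replicate 1 stood apart, with a count for 28599 genes against 15548 to 17965 in the other cultured libraries, and the log2FC of each of the 9 genes is given with and without it. The labels were checked with known genes. Myog, the regulator of terminal differentiation, and Acta1, Myh3 and Ckm of the contractile and energy apparatus had log2FC (log2 fold change) values of 3.81, 7.11, 7.96 and 7.24 in MT against MB, and Pax7 of precursor cells -4.11, all past the test. Of the 3 cycle genes, Cdk1 (-2.87) and Top2a (-1.80) passed it and Mki67 (-1.36, adjusted p = 0.143) did not (edgeR quasi-likelihood test). The myogenic regulators Myf5 (-0.999, adjusted p = 0.280) and Myod1 (-1.93, adjusted p = 0.0528) did not pass it either by edgeR. Fibroblast markers also differed between MT and MB. All 5 of Pdgfra, Col1a1, Col1a2, Dcn and Lum had counts in both MT libraries, their summed level was 13568 CPM in MT replicate 1 and 1878 CPM in MT replicate 2, against 1.58 to 4.17 CPM in the MB libraries with and without lactate, where Lum was at 0. In GAS the sum was between 424 and 533 CPM.

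**Figure D1:**
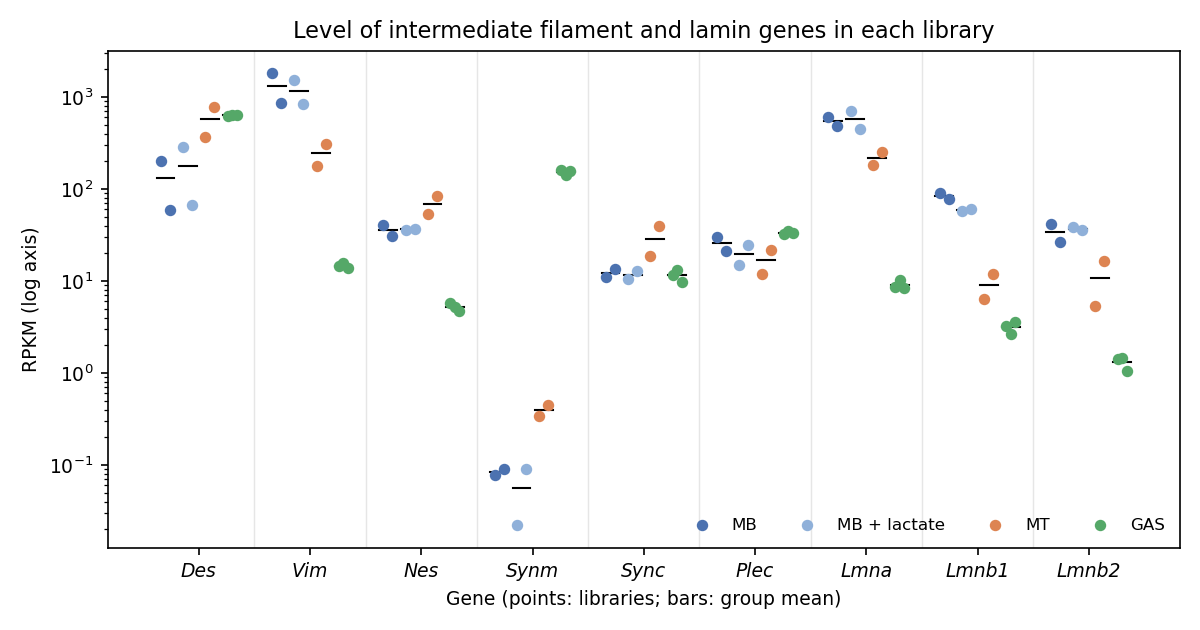
RPKM, on a log axis, of the 9 genes in each library of MB, lactate-treated MB, MT and GAS, with points for libraries and bars for group means. Synm lies under 0.5 RPKM in all cultured libraries and over 142 RPKM in GAS, and Vim, Lmna, Lmnb1 and Lmnb2 are lower in MT than in MB and lower still in GAS, which was normalized separately.

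The order of the genes within a group was compared on levels per length (RPKM, CPM per kilobase of merged exons), normalized within GAS and within the cultured cells. In MB, Vim led with 1331 ± 670 RPKM (SD, n = 2) and ranked 20th among 14828 genes detected in both libraries, followed by Lmna with 549 ± 89.3 RPKM. Des followed with 130 ± 100.0 RPKM and overlapped with Lmnb1 at 83.6 ± 8.44 RPKM. Nes at 35.8 ± 7.17, Lmnb2 at 34.0 ± 10.5 and Plec at 25.7 ± 6.35 RPKM overlapped with their neighbours, Sync had 12.2 ± 1.69 RPKM, and Synm was last with 0.0842 ± 0.00984 RPKM, resting on 5 and 6 counts. In MT, Des led with 569 ± 288 RPKM and ranked 50th of 17217 genes, above Vim at 246 ± 93.3 and Lmna at 218 ± 47.1 RPKM, which overlapped with each other. Nes followed with 68.7 ± 20.9 RPKM, Sync (28.9 ± 14.6), Plec (16.8 ± 7.05), Lmnb2 (10.8 ± 7.77) and Lmnb1 (9.04 ± 3.86 RPKM) each overlapped with the next, and Synm was again last with 0.393 ± 0.0785 RPKM.

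In GAS the order was different. Des led with 635 ± 8.16 RPKM (SD, n = 3), rank 60 of 16011 genes, and Synm, last in every cultured group, was second with 152 ± 8.80 RPKM, rank 219. Its counts were 24832, 22297 and 23783 in GAS against 1 to 36 in the cultured libraries. Plec followed with 33.3 ± 1.29 RPKM. Vim had 14.6 ± 0.976, Sync 11.5 ± 1.76, Lmna 9.06 ± 1.07, Nes 5.19 ± 0.511, Lmnb1 3.18 ± 0.466 and Lmnb2 1.30 ± 0.226 RPKM, and of these neighbours Sync and Lmna alone overlapped. Libraries of GAS were poly(A)-enriched whereas those of cultured cells followed Smart-seq2, so that tissue and protocol cannot be told apart and no test was run between them. In bulk RNA, fewer cells of a type and less RNA per cell cannot be told apart either. GAS is whole tissue, and markers of other cells were present there, with a summed level of 138 to 154 CPM for the 5 endothelial markers, 253 to 278 CPM for the smooth muscle and pericyte markers, 133 to 184 CPM for the adipocyte markers, 16.8 to 29.5 CPM for the Schwann cell markers and 16.2 to 17.5 CPM for the immune markers.

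In MT, differentiated from MB, Vim and Lmnb1 were lower, and these 2 of the 9 genes passed the test (adjusted p under 0.05 and an absolute log2FC over 0.5). None rose by this test, against 11% of all 12921 genes tested called higher and 6.86% called lower. At an unadjusted p under 0.05, 3 of the 9 were higher (Des, Synm and Sync) and 3 lower (Vim, Lmnb1 and Lmnb2), where 18.2% of all genes were higher and 14.3% lower. The DESeq2 Wald test called 1 of the 9 higher (Des) and 4 lower (Vim, Lmna, Lmnb1 and Lmnb2), against 13.4% and 10% of all genes. The median log2FC was -0.65 over the 9 genes and 0.07 over all genes tested. Without MT replicate 1, 1 of the 9 was lower (Lmnb1) and none higher, against 2.06% and 7.34% of all genes by edgeR. At an unadjusted p under 0.05, 2 were then higher and 1 lower, against 11.9% and 7.24%.

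**Figure D2:**
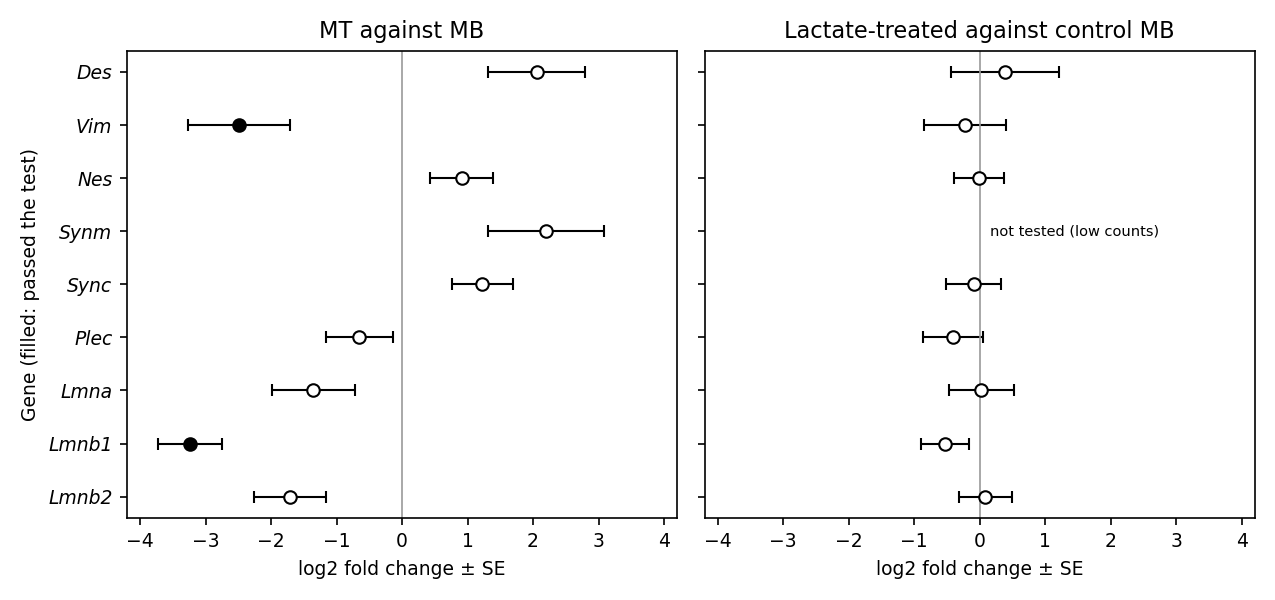
Log2 fold change with its standard error for each gene, MT against MB at left and lactate-treated against control MB at right, from edgeR fits of 2 against 2 libraries, with filled points for genes that passed the test. Vim and Lmnb1 are filled at left, no gene at right, and Synm had too few counts for the right fit.

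Des, the gene of desmin, the main intermediate filament protein of mature muscle, had 1370 and 2900 CPM in the MT libraries and 754 and 223 CPM in the MB libraries. Both MT libraries lay above both MB libraries, and the MB libraries differed from each other by a larger factor than the MT libraries. The log2FC of 2.05 ± 0.74 (SE) had an adjusted p of 0.0794 by edgeR and did not pass the test. Des passed in 3 of 12 alternatives, which were DESeq2 (2.06, adjusted p = 0.00689), the block with crossed numbers (2.28, adjusted p = 0.022) and the edgeR fit without MB replicate 1 (3.21, adjusted p = 0.0019). Without MB replicate 2 its log2FC was 1.34 with an adjusted p of 0.322 by edgeR, without MT replicate 2 it was also 1.34 (adjusted p = 0.202), and without MT replicate 1 it was 2.46 (adjusted p = 0.0583). Des lies on chr1:75360329-75368579 on the plus strand, and 220 bp, or 5.86% of its exonic bases, are shared with an antisense gene, Gm15179, which had 79 counts in MT replicate 1 and 0 in the other cultured libraries.

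Vim encodes vimentin, the filament protein of mesenchymal and precursor cells, fibroblasts among them. It had 853 and 1479 CPM in MT and 8562 and 4065 CPM in MB. All MT values lay under all MB values, by 5.42-fold in the group means. The log2FC was -2.49 ± 0.78 (SE) with an adjusted p of 0.0493 by edgeR, close to the threshold. The call was lost when MT replicate 1 (adjusted p = 0.343), MT replicate 2 (0.0519) or MB replicate 1 (0.0581) was left out, and was kept without MB replicate 2 (adjusted p = 0.00251). With numbered replicates as a replicate block the adjusted p was 0.117. The log2FC stayed between -3.04 and -1.85 and was -2.19 without MT replicate 1. The fibroblast markers that were higher in MT libraries thus stood beside a lower level of Vim, and the part of those markers in its value was not tested. The gene is on chr2:13573927-13582826, plus strand.

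The ratio of Des to Vim within a library does not depend on the scaling of libraries. On the log2 scale of RPKM it was 1.02 and 1.31 in MT, -3.17 and -3.85 in MB, -2.40 and -3.64 in MB with lactate, and 5.44, 5.36 and 5.52 in GAS. The MT values were all above 0 and those of MB all under 0, with a difference of 4.67 between the means, or 25.5-fold. With 2 against 2 libraries the smallest p of an exact two-sided permutation test is 0.333, which was reached here. Des held 59.1% and 64.0% of the RPKM summed over the 5 cytoplasmic filament genes in MT, 9.76% and 6.20% in MB and 76.7% to 78.5% in GAS. Vim held 87.7% and 89.2% in MB, 29.1% and 25.8% in MT and 1.69% to 1.92% in GAS. In GAS, the second place was that of Synm, with 17.4% to 19.4%.

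**Figure D3:**
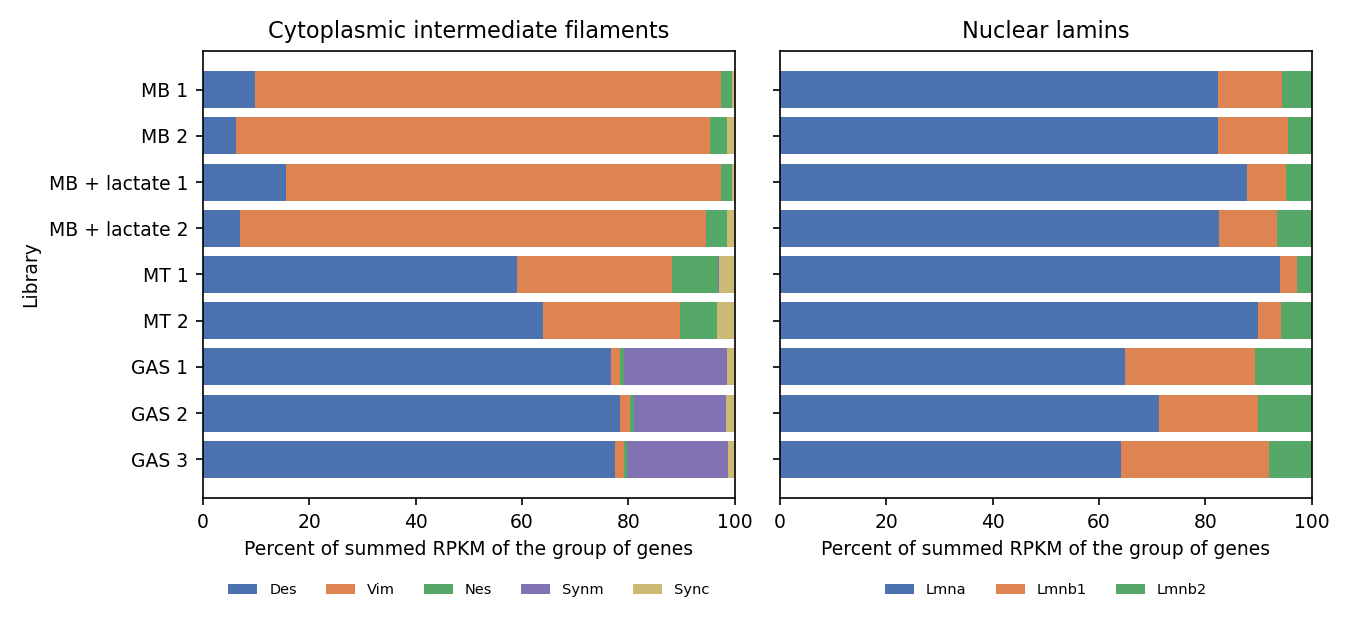
Share in percent of each gene in the summed RPKM of the cytoplasmic filament genes Des, Vim, Nes, Synm and Sync (left) and of the lamin genes Lmna, Lmnb1 and Lmnb2 (right), with a bar per library. Vim fills over 81% of the left bars of MB with and without lactate and Des over 59% of those of MT and GAS, and the Lmna part is longest in MT (89.9% and 94.1%) and shortest in GAS (64.1% to 71.3%).

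Nes, Synm and Sync, whose products join or bind the filaments, had positive log2FC values in MT against MB that did not pass the edgeR test. Nes, the gene of nestin, had 346 and 536 CPM in MT and 262 and 197 CPM in MB, with a log2FC of 0.91 ± 0.48 and an adjusted p of 0.215. Synm, the gene of synemin, had 36 and 28 counts (2.68 and 3.56 CPM) in MT and 5 and 6 counts (0.613 and 0.723 CPM) in MB, with a log2FC of 2.20 ± 0.88 and an adjusted p of 0.112. The MT libraries lay above the MB libraries for both genes, but Synm stayed far under its level in GAS of 1129 to 1261 CPM, which was normalized separately. Sync, the gene of syncoilin, had 53.4 and 112 CPM in MT and 31.5 and 38.3 CPM in MB, with a log2FC of 1.23 ± 0.47 and an adjusted p of 0.0979. The log2FC of Sync was 0.52 without MT replicate 2 (adjusted p = 0.643 by edgeR) and 1.63 without MT replicate 1 (adjusted p = 0.173), the lowest and the highest of its alternatives. Without MT replicate 1 the log2FC was 1.14 for Nes and 2.33 for Synm, and without MT replicate 2 it was 0.48 for Nes. None of these 3 genes passed in any alternative. Of the exonic bases of Sync, 27.3% (782 bp) are shared with Rbbp4 on the opposite strand, whose counts were 2698 and 2259 in MT and 4116 and 3494 in MB. As no source says whether strand was used in counting, reads of Sync and Rbbp4 in the shared bases cannot be told apart. Nes is on chr3:87971078-87980451 (plus), Synm on chr7:67730160-67759742 (minus) and Sync on chr4:129287617-129308559 (plus).

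Plec, the gene of plectin, had 214 and 395 CPM in MT and 547 and 385 CPM in MB, and the groups overlapped. Its log2FC was -0.65 ± 0.51 (adjusted p = 0.406). The value was -0.32 without MT replicate 1 and -1.24 without MT replicate 2, and Plec passed in none of 12 alternatives, with edgeR or DESeq2 adjusted p values from 0.221 to 0.900. In GAS it had 582, 628 and 599 CPM. Plec spans chr15:76170974-76232574 on the minus strand with 46 merged exons.

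All 3 lamin genes had lower values in both MT libraries than in both MB libraries, and of these Lmnb1 passed the test. Des, Vim, Nes, Synm and Sync were also separated between MT and MB, and the share of all genes separated in this way was not computed. Lmnb1 had 18.7 and 34.8 CPM in MT and 265 and 230 CPM in MB, a 9.26-fold difference of the means. Its log2FC of -3.24 ± 0.49 had an adjusted p of 0.00178 by edgeR, and it passed in each of 12 alternative fits, with adjusted p values from 5.67e-09 to 0.0153 and log2FC values from -3.83 without MT replicate 2 to -2.90 without MT replicate 1. Lmnb2 had 22.9 and 69.9 CPM in MT and 178 and 114 CPM in MB, with a log2FC of -1.71 ± 0.55 and an adjusted p of 0.0563. It passed in 6 of 12 alternatives, among them the fits without MT replicate 2 (-2.79, adjusted p = 0.00996) and without MB replicate 2 (-2.11, adjusted p = 0.000826), and its log2FC was -1.14 (adjusted p = 0.475) without MT replicate 1. The 2 MT libraries differed more from each other for Lmnb2 than for Lmnb1. Lmna, which encodes lamins A and C, had 1076 and 1465 CPM in MT and 3573 and 2835 CPM in MB, with a log2FC of -1.36 ± 0.63 and an adjusted p of 0.164. The log2FC of Lmna was -1.21 without MT replicate 1, and it passed in 1 of 12 alternatives, by DESeq2 (adjusted p = 0.0198). Lmna is on chr3:88480147-88509956 (minus), Lmnb1 on chr18:56707813-56753424 (plus) and Lmnb2 on chr10:80901203-80918245 (minus).

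The balance of the lamin genes was read from ratios within a library. The log2 ratio of Lmna to Lmnb1 RPKM was 4.87 and 4.42 in MT, 2.77 and 2.64 in MB and 1.41, 1.94 and 1.20 in GAS. MT thus lay above MB without overlap, by 1.93 between the means or 3.82-fold (exact two-sided permutation p = 0.333, the smallest possible). GAS lay under both. MB with lactate, at 3.59 and 2.90, also lay above control MB without overlap, by 1.45-fold and with the same p of that test. The ratio of Lmna to Lmnb2 was 5.11 and 3.94 in MT and 3.88 and 4.19 in MB, which overlapped. Lmnb1 exceeded Lmnb2 in both MB libraries, with log2 ratios of 1.11 and 1.55, whereas the 2 MT libraries had 0.24 and -0.47. MB with lactate had 0.60 and 0.78, also under control MB without overlap. The summed RPKM of the 3 lamin genes was 196 and 279 in MT, 743 and 590 in MB and 13.0 to 14.4 in GAS. Beside these lamin values, the level of Cdk1, a kinase of dividing cells, was 56.9 ± 6.05 CPM (SD, n = 2) for MT and 420 ± 22.8 CPM for MB, and its part in them was not tested. The cycle genes Top2a (log2FC -1.80) and Mki67 (-1.36, not past the edgeR test) differed less than Cdk1 (-2.87).

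Lactate treatment of MB was compared with control MB to see whether lactate alone moves expression, here of these genes. None of the 8 genes tested passed the threshold used for this comparison (unadjusted p under 0.01 and an absolute log2FC over 0.5) by edgeR, in which 0% of all 11804 genes tested were called higher and 0% lower. At an unadjusted p under 0.05, 0.0169% of all genes (2) were higher and 0.0254% (3) lower. None of the 8 had an unadjusted p under 0.05 by edgeR or by DESeq2, and all adjusted p values were 1.00. The log2FC was 0.39 ± 0.83 for Des, -0.23 ± 0.63 for Vim, -0.01 ± 0.38 for Nes, -0.09 ± 0.42 for Sync, -0.41 ± 0.45 for Plec, 0.03 ± 0.50 for Lmna and 0.08 ± 0.40 for Lmnb2, each smaller than its SE. The value of Lmnb1 was the largest in relation to its error, at -0.53 ± 0.37 (unadjusted p = 0.203).

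Lmnb1 had 171 and 180 CPM in the treated libraries and 265 and 230 CPM in the controls, and both treated libraries lay under both controls. The share of all genes separated in this way was not computed, and the difference of Lmnb1 did not pass the test. Des had 1078 and 251 CPM with lactate against 754 and 223 CPM, Vim had 7174 and 3947 against 8562 and 4065 CPM, and in both groups replicate 1 was the higher library for both genes. For Lmna the values were 4068 and 2648 against 3573 and 2835 CPM, and for Lmnb2 they were 164 and 152 against 178 and 114 CPM. Nes had 229 and 238 CPM with lactate against 262 and 197 CPM, Sync 30.0 and 36.8 against 31.5 and 38.3 CPM, and Plec 273 and 441 against 547 and 385 CPM. Synm had 1 and 4 counts against 5 and 6 and was not tested. The spread between the 2 libraries of a group limits what this fit could detect, since the SE was 0.37 or more for each gene. The fit has no term for the replicate number, so that a spread shared by same-numbered libraries stays in the SE. With a replicate block, 0.635% of all genes were higher and 0.771% lower at an unadjusted p under 0.05 by edgeR, and none of the 8 genes was among them.

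Genes that work with these filaments were counted in lists, beside which 11% of all genes were called higher and 6.86% lower by edgeR. Of 14 other intermediate filament genes, 3 had enough counts to be tested, and all 3 fell in MT. Nefl and Nefm, of the neurofilaments, had 97.2 and 76.4 CPM and 63.8 and 61.3 CPM in MB. Nefl had 1 and 0 counts in MT and was at least 287-fold lower, with 3 counts per library as the floor, and Nefm had 4.99 and 1.27 CPM in MT (log2FC -4.24 ± 0.69, adjusted p = 0.00282). Krt19, a keratin, had a log2FC of -2.77 ± 0.72. These 3 were also called lower without MT replicate 1 and without either MB replicate. Without MT replicate 2, 7 of the list had enough counts, of which Nefl and Nefm were called lower and 4 higher, Krt19 did not pass (adjusted p = 0.0534 by edgeR), and the median log2FC turned from -4.24 to 4.29. The 4 were Gfap, Ina, Krt5 and Krt7, named after their values were seen, with 42 to 70 counts in MT replicate 1 and 0 to 7 in MT replicate 2. In that fit 21.9% of all genes were called higher and 4.26% lower. Over the 7 genes tested without MB replicate 1 or 2 the median was 3.15 and 2.88. Of 8 cytolinker and desmosomal plaque genes, 7 were found and 4 tested, none passed by edgeR, and the median log2FC was 1.02. At an unadjusted p under 0.05, 2 of the 4 were higher and 1 lower, against 18.2% and 14.3% of all genes. DESeq2 called 1 and 1, against 13.4% and 10%. Of these 4, 1 was lower without MT replicate 1, and of 7 tested without MB replicate 1 or 2, 1 or 2 were higher and 1 lower. Of all genes 6.6% were then called higher and 5.93% lower without MB replicate 1, and 9.22% and 8.34% without MB replicate 2.

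**Figure D4:**
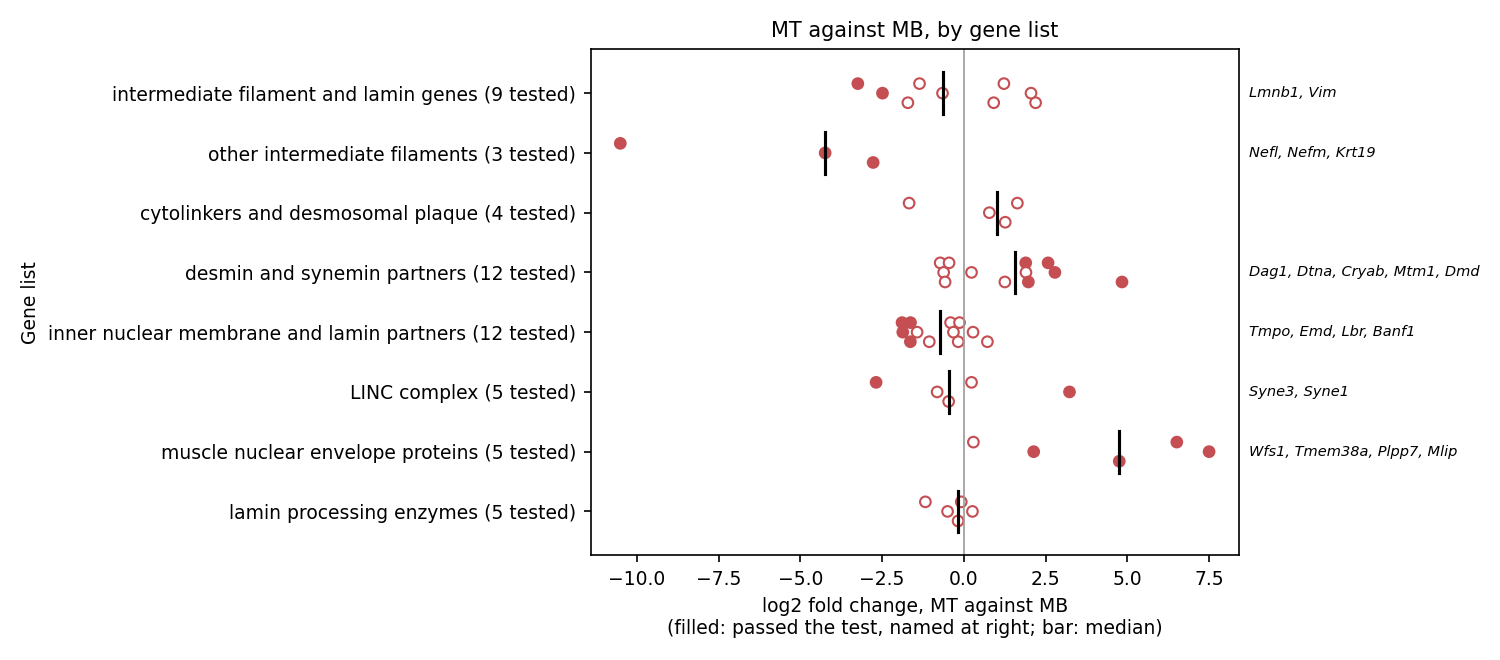
Log2 fold change of MT against MB for the 9 genes and for lists of related genes, with a point per gene tested, filled where it passed the edgeR test and then named at right, and a bar at the list's median. The inner nuclear membrane genes that passed lie under 0 and the muscle nuclear envelope genes that passed over 0.

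Of 12 genes whose products work with desmin or synemin, 5 rose and none fell in MT by edgeR, against 11% and 6.86% of all genes. At an unadjusted p under 0.05, 6 were higher and 0 lower, against 18.2% and 14.3%. DESeq2 also called 6 and 0, against 13.4% and 10%. The median log2FC was 1.57, against 0.07 over all genes. Dmd, the gene of dystrophin, had 40.1 and 34.0 CPM in MT and 0.245 and 2.41 CPM in MB (log2FC 4.84 ± 0.82). Mtm1, of the lipid phosphatase myotubularin (2.79 ± 0.71), Cryab, of the chaperone αB-crystallin (2.58 ± 0.53), and Dtna, of α-dystrobrevin (1.97 ± 0.44), rose as well, and Dag1, of dystroglycan, was the fifth. The small heat shock gene Hspb1 had -0.45 (adjusted p = 0.567) and the co-chaperone gene Bag3 -0.62 (adjusted p = 0.392). Of the 12, 3 rose without MT replicate 1, against 7.34% of all genes, with a median log2FC of 0.71.

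Of 12 genes of inner nuclear membrane proteins and lamin partners, 4 fell and none rose by edgeR, against 6.86% and 11% of all genes, with a median of -0.73. At an unadjusted p under 0.05, 5 were lower and 0 higher, against 14.3% and 18.2%. DESeq2 also called 5 and 0, against 10% and 13.4%. The 4 that fell by edgeR were Tmpo, of LAP2 (-1.89 ± 0.49), Emd, of emerin (-1.87 ± 0.49), Lbr, of the lamin B receptor (-1.63 ± 0.43), and Banf1, of a DNA-bridging protein (-1.63 ± 0.45). These calls did not hold without MT replicate 1, which leaves 1 MT library, and the median log2FC of the 12 was then -0.85. Without MT replicate 2, 2 of the 12 fell, against 4.26%, and without MB replicate 2, 6 of the 12 fell, against 8.34%. Of 5 genes of nuclear envelope proteins prominent in muscle, 4 rose with and without MT replicate 1, and 3 without MT replicate 2 or without MB replicate 2, where all genes called higher made up 11%, 7.34%, 21.9% and 9.22%. Mlip, of a lamin A/C interacting protein, had 25.1 and 22.9 CPM in MT and 0 and 2 counts in MB, at least 65.8-fold higher against 3 counts per library, Plpp7 had 37.7 and 90.4 CPM against 0.858 and 0.482 CPM, and Tmem38a (4.75 ± 0.61) and Wfs1 (2.14 ± 0.52) followed. In the LINC complex, which joins the lamina to the cytoskeleton, Syne1 (nesprin-1) rose by 3.23 ± 0.67 and Syne3 (nesprin-3, which binds plectin) fell by 2.68 on the log2 scale (SE 0.57), while Sun1, Sun2 and Syne2 did not pass. Syne1 and Syne3 passed with each library left out, with log2FC values of 3.56 and -2.66 without MT replicate 1. None of 5 lamin processing enzyme genes passed by edgeR or DESeq2, 1 being lower at an unadjusted p under 0.05, against 14.3% of all genes by edgeR. No gene of these lists passed the lactate threshold by edgeR or had an unadjusted p under 0.05 by edgeR or DESeq2.

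Markers of other cells were tested in the same fit. Of the fibroblast markers Col1a1, Col1a2 and Dcn rose in MT (3 of 4 tested, and 2 of 4 without MT replicate 1). Of the smooth muscle and pericyte markers Acta2 (2.60 ± 0.69) and Pdgfrb (4.30 ± 0.61) rose, as they did without MT replicate 1 (3.14 and 4.67), and Acta2 did not pass without MT replicate 2 or MB replicate 2. Of the Schwann cell list Ncam1 (3.11 ± 0.55) rose, which muscle cells also express, whereas the defining Schwann genes Sox10 and S100b were under 2 CPM as group means in MT. The smooth muscle and pericyte list summed to 1304 and 3643 CPM in MT and 467 and 287 CPM in MB. Of its other genes, Rgs5 did not pass (0.71 ± 1.22, adjusted p = 0.730 by edgeR). Myh11 and Cspg4 had means of 1.68 and 1.54 CPM in MT and were not tested. The endothelial, immune and adipocyte lists summed to at most 17.2 CPM in a cultured library, with the highest sums in MT replicate 1. The part of these markers in the values of the 9 genes was not tested.

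The patterns most like those of 5 of the 9 genes over the 6 cultured libraries were ranked by the root mean square difference of log2 CPM, centred per gene, among 8750 genes with a mean of at least 10 CPM. For Des these were Chchd10, Map1lc3a, Pltp, Pink1 and Jup, with differences of 0.248 to 0.320. For Vim they were Impdh2-ps, Impdh2, Fbl, Npm3 and Rcc2 (0.0961 to 0.190), where Impdh2-ps is a pseudogene whose reads may belong to Impdh2. For Nes they were Abca2, Igsf8, Rhbdf1, Tmem127 and Ccdc91 (0.0726 to 0.111), and for Lmna they included Emg1, Fam207a, Ciapin1 and Mrps35 (0.0728 to 0.0832). For Lmnb1 they were Areg, Mcm3, Cdkn2b, Incenp and H2afy2 (0.188 to 0.224). The smallest difference was that of Nes and Abca2, and the fifth gene was nearest for Lmna and most distant for Des.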

How the data were processed

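RNA of GAS (3 libraries), MB, MT and lactate-treated MB (2 each) was sequenced, from poly(A) RNA for GAS and with Smart-seq2 for the cultured cells. The authors trimmed reads with Trim Galore 0.6.6, aligned them to mm10 with HISAT2 2.2.1 and deposited raw counts per gene made with featureCounts (Subread 2.0.1). The annotation release, the use of strand and the handling of reads with several alignments are not given in the sources used here. Gene names, positions and exon lengths came from GENCODE M21.

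CPM values used TMM factors, computed for GAS and for the 6 cultured libraries separately, and RPKM values were CPM divided by merged exon length. MT was tested against MB and lactate-treated against control MB with edgeR 4.0.16 (filterByExpr, TMM, quasi-likelihood test, Benjamini-Hochberg adjustment over all genes tested), each on its own 4 libraries. SE values were derived from the F statistic. The fits were also run on simulated counts with known changes. These had no spread shared by same-numbered libraries, and the outcome is not reported here. DESeq2 1.42.0, R 4.3.3, Python 3.11.15, pandas 2.3.3, scipy 1.17.1 and matplotlib 3.10.9 were used. Promoter windows were those of RefSeq.

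The 9 genes and the lists were chosen with earlier results of these data known. Named are the 9 genes, up to 4 genes per list that passed the MT test, by absolute log2FC, the differentiation checks and the 5 nearest patterns. Dag1, Hspb1, Bag3, Sun1, Sun2 and Syne2, the smooth muscle and pericyte markers Rgs5, Myh11 and Cspg4 and the Schwann genes Sox10 and S100b were named after their values were seen. A few genes that this rule or the lists hold are not reported here. Alternatives were RLE factors, DESeq2, no or a stricter filter, the replicate block, all 6 cultured libraries in 1 fit, ribosomal RNA genes left out, other thresholds, other levels and each library left out. A block with crossed numbers was added after seeing the data.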

Additional observations from a re-analysis of the deposited data

How the results depend on the processing

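In MT against MB, no log2FC of the 9 genes changed sign in any of 107 alternative values. The call of Vim was lost with RLE factors (-2.48), no filter (-2.44), at least 10 counts in every library (-2.37) and the replicate block (-2.39), and when MT replicate 1, MT replicate 2 or MB replicate 1 was left out. Of the 9 genes, 2 were called higher and 3 lower at an adjusted p under 0.1. With RLE factors 0 and 1 were called, against 11% and 6.79% of all genes. DESeq2 called 1 and 4, against 13.4% and 10%. With at least 10 counts in every library, 8 of the genes were tested. Of these, 0 were called higher and 1 lower, against 7.19% and 6.37% of all genes. The replicate block gave 0 and 2 for the 9 genes (Lmnb1 and Lmnb2) and 1447 and 824 over all genes (11.2% and 6.38%). Crossed numbers gave 1 and 3 for the 9 genes, against 9.23% and 6.71% of all genes. Same-numbered libraries deviated with a Pearson r of -0.13 in MT and MB and 0.70 in the lactate comparison, across genes and over 2 pairs, and the labels do not pair them. When each library was left out, 0 to 1 of the 9 genes were called higher and 1 to 3 lower, and over all genes 962 to 4118 were called higher and 270 to 1570 lower. An adjusted p under 0.1 gave 1415 genes lower and the stricter filter 766 higher. The median log2FC of all genes was 1.82 without a filter, which admits genes with counts in MT replicate 1 alone, and -0.02 to 1.00 with a library left out.

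In the lactate comparison none of the 9 genes was called in any alternative. DESeq2 called 1 gene of all tested higher, the unfiltered fit 1, and the replicate block 7 higher and 6 lower, and with a library left out 1 to 176 were higher and 0 to 1 lower. The log2FC of Nes turned to 0.0464 with RLE factors and with DESeq2 and to 0.0067 with the replicate block. With a library left out the log2FC ranged from -0.95 to 1.63 for Des, -0.66 to 0.50 for Vim, -0.19 to 0.29 for Nes, -0.29 to 0.092 for Sync, -0.26 to 0.29 for Lmna and -0.19 to 0.52 for Lmnb2. The causes were not tested.

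RPKM with the longest transcript as length was 1.01 to 1.62 times the value given, and the places of Nes and Lmnb2 in MB changed. Without TMM it was 0.827 to 1.10 times that value.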
